A study of Homo sapiens with 22 samples.

Results

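Transcripts of 10 genes that make or break down lipid mediators were followed in cultured human blood progenitors: ALOX5, ALOX5AP, ALOX12, ALOX15, LTC4S, LTA4H, PTGS1, PTGS2, HPGDS and PLA2G7. They were taken by symbol from the 60240 genes of the deposited count table, each matched 1 row, and all 10 passed the filter on low counts. The cells were haematopoietic progenitors obtained by differentiating H1 cells, a widely used line of human embryonic stem cells, and RNA with a polyA tail was sequenced. Cultures without drug (UT) were sampled at 2-day steps from day 10 to day 20. Cultures with doxycycline (DOX), which turned on MYC, a transcription factor, from an added gene copy, were sampled at the same steps from day 12. Each of the 11 groups held 2 libraries, 22 in all, and every library carries the same line and batch name. No group had doxycycline without ectopic MYC, so effects of the drug and of MYC cannot be told apart. When the drug was first given is not stated in the sources used here. Nothing in the labels marks the 2 libraries of a group as separate cultures, and all p-values below reflect variation among libraries that may be technical.

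Eicosanoids are short-lived signalling lipids made from arachidonic acid after a phospholipase has released it from membranes. Lipoxygenases turn it into leukotrienes and hydroxy acids, and cyclooxygenases turn it into prostaglandins and thromboxane. Platelet-activating factor (PAF) is a related phospholipid mediator, and secreted PAF acetylhydrolase, encoded by PLA2G7, inactivates it. Eosinophils and mast cells are known for cysteinyl leukotrienes and 15-lipoxygenase products, mast cells for prostaglandin D2, and platelets for 12-lipoxygenase and cyclooxygenase-1 products.

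Library totals ran from 24730502 to 53508548 estimated counts. Levels are given as CPM, counts relative to library size scaled by trimmed mean of M values (TMM). Folds come from an edgeR quasi-likelihood fit over all 20115 tested genes, and "called" means an adjusted p (Benjamini-Hochberg) below 0.05. MYC was 1.78-fold higher in DOX averaged over days 12 to 20 (log2 fold change 0.83, SE 0.11, adjusted p = 4.3e-06), and on day 20 its libraries overlapped between the arms. The share of counts from mitochondrially encoded genes went from 8.92% ± 0.585 (SD, n = 2) in UT on day 10 to 72.7% ± 0.332 on day 20, and from 11.3% ± 1.28 on day 12 to 57.0% ± 2.43 on day 20 in DOX. The arms were farthest apart on day 16 (54.7% ± 1.71 in UT, 20.2% ± 1.05 in DOX), followed by day 18 (59.7% ± 4.41 and 36.7% ± 0.263). Fits without mitochondrially encoded genes are given in the closing section. The part of these shares in the results of those days was otherwise not tested. The 2 UT day 14 libraries had the largest chi-square per gene of any pair (100 against 7.99 to 44.6) and mitochondrial shares of 17.5% and 9.95%. The SD of the log2 difference between replicates was 0.67 there and larger in 5 other groups, up to 1.38 in UT on day 20. UT day 16 replicate 2 had a summed level of 5 fibroblast markers of 543 CPM, against 10.9 to 36.9 CPM in the other 21 libraries. Of 7 progenitor markers all were detected, with a summed level of 589 to 1062 CPM per library. Among these CD34, named after its values were seen, fell from 109 CPM ± 3.75 in UT on day 10 to 5.05 ± 4.35 on day 20, and stood at 6.66 ± 2.21 in DOX on day 20 (SD, n = 2). The other progenitor markers, led by SPN, gave nearly all of the summed level late in the course.

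Markers of other blood cells moved with the days and with the arms. The summed level of 9 eosinophil markers was 19.8 CPM ± 1.60 in UT on day 10, 32220 ± 4154 on day 18 and 23756 ± 2863 on day 20, and 11698 ± 605 in DOX on day 20 (SD, n = 2). All 9 were lower in DOX in the averaged comparison, and PRG2, which encodes a granule protein, was the most abundant. The 9 megakaryocyte and platelet markers, led by PPBP, summed to 6191 CPM ± 121 in UT on day 12 and 261 ± 13.7 on day 20, against 685 ± 63.6 in DOX on day 20, and all 9 were higher in DOX on average. The mast cell and basophil markers FCER1A and CMA1 had 0 counts in every library. Of the 6 other markers of that list, 5 were lower in DOX. Neutrophil markers (9 of 10) and monocyte and macrophage markers (9 of 10 tested) were also lower, none of either list was higher, and 1 of 5 fibroblast markers was lower. Erythroid markers (7 higher, 1 lower of 8) and endothelial markers (4 of 4 higher) went the other way, and progenitor markers split (2 higher, 2 lower of 7). In bulk RNA, fewer cells of a type and less RNA per cell cannot be told apart, and the part of these markers in the results on the enzymes was not tested.

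Promoter windows from RefSeq (GRCh38.p14) were matched for 8 of the 10 genes, 10 windows in all. Shown are the windows of ALOX12, the member whose level in DOX was on average most raised above UT, and of ALOX5AP and HPGDS. ALOX5AP and HPGDS rose steeply over the UT course, and these windows are printed so genes that moved apart can be read side by side. Each is 250 bases upstream of the annotated start, 5′ to 3′ on the gene's strand. Capitals mark, on either strand, the GATA motif GATAA, the GC box GGGCGG, the TATA box TATAAA and the ETS core GGAAGT. The ALOX12 window lies at chr17:6995799-6996048 (plus strand), the ALOX5AP window at chr13:30713235-30713484 (plus strand) and the HPGDS window at chr4:94342837-94343086 (minus strand).
ALOX12: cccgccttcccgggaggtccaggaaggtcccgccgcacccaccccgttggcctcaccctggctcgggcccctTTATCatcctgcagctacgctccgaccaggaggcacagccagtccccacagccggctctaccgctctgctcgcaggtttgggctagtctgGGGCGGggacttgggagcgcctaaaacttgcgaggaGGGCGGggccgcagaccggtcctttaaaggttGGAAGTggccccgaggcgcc
ALOX5AP: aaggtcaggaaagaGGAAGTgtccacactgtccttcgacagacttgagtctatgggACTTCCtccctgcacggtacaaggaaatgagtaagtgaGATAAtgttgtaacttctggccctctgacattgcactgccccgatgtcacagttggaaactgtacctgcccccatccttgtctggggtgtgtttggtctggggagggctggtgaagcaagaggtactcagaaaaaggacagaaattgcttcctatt
HPGDS: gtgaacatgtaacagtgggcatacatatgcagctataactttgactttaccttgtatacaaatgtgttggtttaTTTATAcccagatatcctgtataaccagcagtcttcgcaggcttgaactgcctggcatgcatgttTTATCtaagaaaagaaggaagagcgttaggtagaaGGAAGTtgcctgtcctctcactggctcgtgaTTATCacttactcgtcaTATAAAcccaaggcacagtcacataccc

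GATAA was found once in the ALOX5AP window, once in that of ALOX12 and 2 times in that of HPGDS, and 20.4% of 35116 RefSeq windows of this length hold it. The HPGDS window has TATAAA on the sense strand 28 bases before the start, a motif held by 10.7% of all windows. The GGGCGG matches of ALOX12 begin 88 and 52 bases before the start, and 42.6% of all windows have at least 1. The E-box CACGTG, a sequence that MYC binds with its partner MAX, was in none of the 10 windows, and 6.3% of all windows hold it. In the printed windows no match overlaps another, and a match describes letters only.

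Averaged over days 12 to 20, 9 of the 10 genes differed between DOX and UT, against 52.9% of all genes tested. ALOX12, LTA4H and PTGS1 were higher in DOX (3 genes, where 29.8% of all genes were called higher), and ALOX5, ALOX5AP, ALOX15, LTC4S, HPGDS and PLA2G7 were lower (6 genes, where 23.0% of all genes were called lower). The median log2 fold change of the members was -0.99, against 0.08 over all genes. The same 9 calls stood in each of 20 fits that left out 1 library, and 9 were called when libraries were scaled by their totals alone, a scaling that moved the median of all genes to 0.60.

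**Figure D1:**
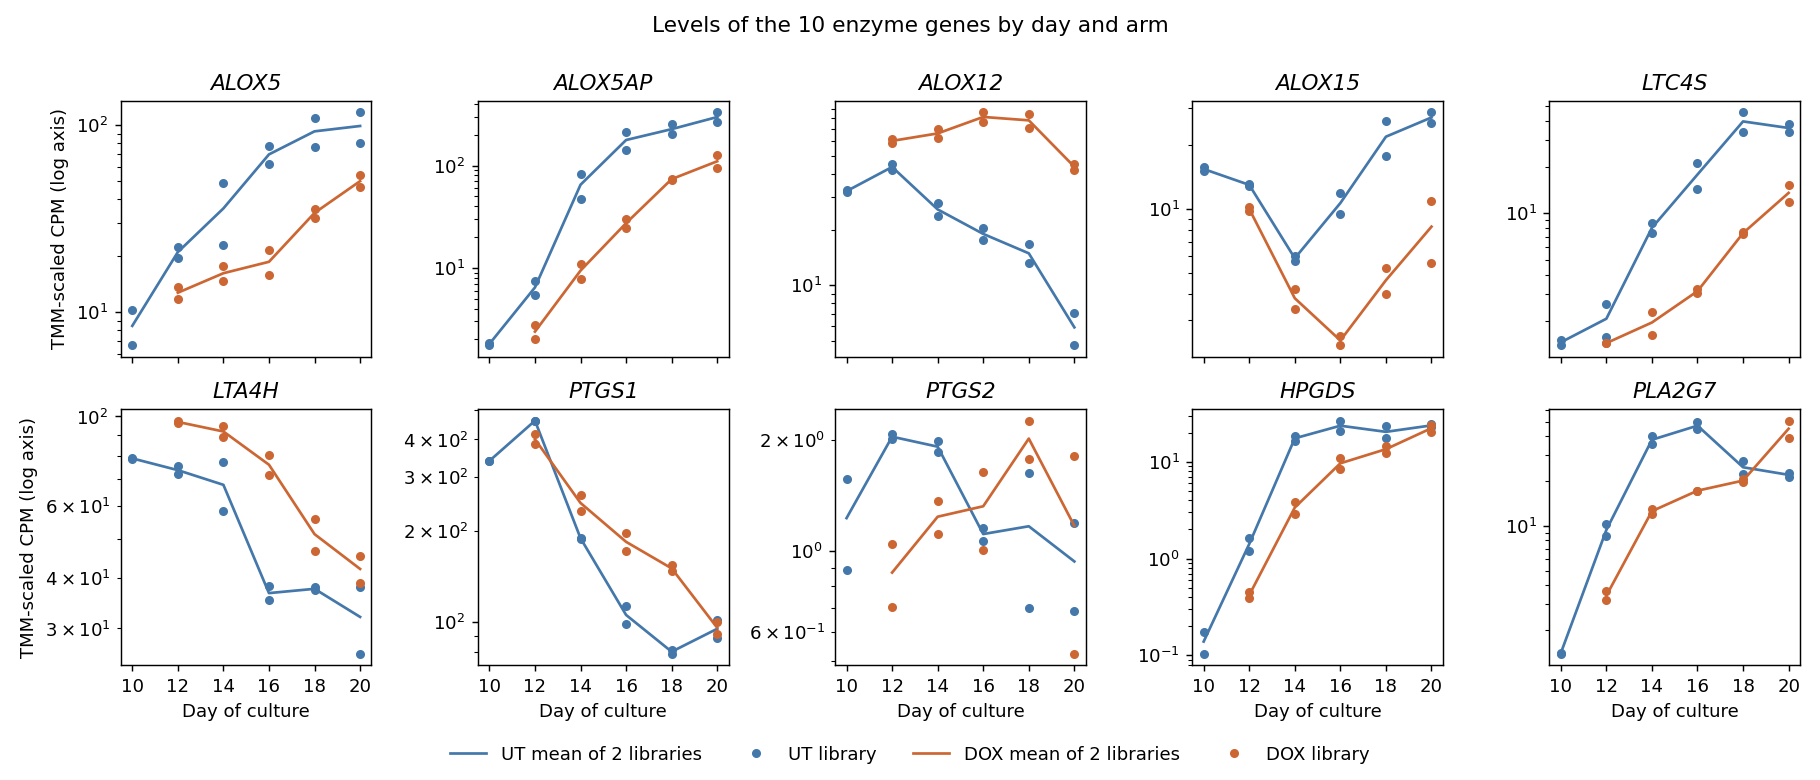
Levels of the 10 genes (TMM-scaled CPM, log axis) by day of culture. Points are libraries and lines join the means of 2 libraries, blue for UT and orange for DOX; ALOX12 stays between 42.2 and 86.3 CPM in DOX while it falls to 4.75 and 7.10 CPM in UT on day 20.

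ALOX5 (ENSG00000012779.11, chromosome 10, 45374176 to 45446119, plus strand; GRCh38 positions of GENCODE 29) encodes 5-lipoxygenase, the enzyme that opens the leukotriene branch. Its UT libraries held 10.2 and 6.66 CPM on day 10, 22.4 and 19.5 on day 12, 48.8 and 22.9 on day 14, 77.3 and 62.1 on day 16, 108 and 76.7 on day 18, and 117 and 80.6 on day 20. The DOX libraries held 13.6 and 11.7 CPM on day 12, 17.7 and 14.6 on day 14, 21.4 and 15.7 on day 16, 35.8 and 32.0 on day 18, and 46.4 and 53.9 on day 20. Every DOX library lay below both UT libraries of its day. ALOX5 was 2.36-fold lower in DOX on average (log2 fold change -1.24, SE 0.13, adjusted p = 2.2e-07). It was called on days 14, 16, 18 and 20, with its widest gap on day 16 (-1.91, SE 0.29). The day 14 call was lost without UT replicate 1 (-0.49, adjusted p = 0.23) or DOX replicate 2 (-1.01, adjusted p = 0.081), and the day 20 call (-0.98, adjusted p = 0.017) without UT replicate 1 (-0.68, adjusted p = 0.16) or DOX replicate 1 (-0.87, adjusted p = 0.12).

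ALOX5AP (ENSG00000132965.10, chromosome 13, 30713478 to 30764426, plus strand) encodes FLAP, the membrane protein that presents arachidonic acid to 5-lipoxygenase; its promoter window is printed above. In UT it went from 1.85 and 1.76 CPM on day 10 to 7.41 and 5.46 on day 12, 82.6 and 47.3 on day 14, 214 and 142 on day 16, 253 and 201 on day 18, and 333 and 264 on day 20. In DOX it went from 2.75 and 2.01 CPM on day 12 to 11 and 7.85 on day 14, 30.1 and 24.6 on day 16, 74.5 and 73.0 on day 18, and 127 and 93.8 on day 20. Both arms rose and the libraries of the arms did not overlap on any day. ALOX5AP was the only member called on all 5 days, and its averaged difference was the largest fall among the members, 3.99-fold (log2 fold change -2.00, SE 0.12, adjusted p = 2.1e-10). The gap was widest on day 14 (-2.79) and day 16 (-2.70) and was -1.44 on day 20. The day 12 call (-1.44, adjusted p = 0.010) was lost without UT replicate 1 (-1.20, adjusted p = 0.17) or DOX replicate 2 (-1.21, adjusted p = 0.21).

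Leukotriene A4, the product of 5-lipoxygenase, is shared by a pair of enzymes with opposite courses here. LTC4S (ENSG00000213316.10, chromosome 5, 179793980 to 179796647, plus strand), leukotriene C4 synthase, conjugates it with glutathione to the first cysteinyl leukotriene. Its UT libraries held 1.51 and 1.39 CPM on day 10, 2.56 and 1.56 on day 12, 8.62 and 7.50 on day 14, 21.4 and 14.4 on day 16, 45.6 and 33.8 on day 18, and 34.0 and 37.9 on day 20. In DOX the values were 1.44 and 1.43 CPM on day 12, 2.28 and 1.62 on day 14, 3.01 and 3.22 on day 16, 7.53 and 7.35 on day 18, and 11.8 and 15.4 on day 20. DOX libraries were lower on every day, and the averaged difference was 3.44-fold (log2 fold change -1.78, SE 0.11, adjusted p = 3.0e-10). LTC4S was called from day 14 to day 20, and its widest gaps were on day 16 (-2.52) and day 18 (-2.41).

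LTA4H (ENSG00000111144.10, chromosome 12, 96000828 to 96043520, minus strand), leukotriene A4 hydrolase, makes leukotriene B4 from the same substrate. Its UT libraries fell from 79.0 and 78.6 CPM on day 10 to 72.0 and 75.5 on day 12, 58.6 and 77.1 on day 14, 35.2 and 38.2 on day 16, 37.2 and 37.9 on day 18, and 26.0 and 38.1 on day 20. DOX libraries fell from 97.7 and 96.3 CPM on day 12 to 94.6 and 89.1 on day 14, 71.5 and 80.5 on day 16, 55.9 and 46.6 on day 18, and 38.9 and 45.3 on day 20. Levels were 1.46-fold higher in DOX on average (log2 fold change 0.54, SE 0.07, adjusted p = 3.3e-06), with the widest gap on day 16 (1.05, SE 0.16, adjusted p = 4.0e-05). The calls on day 14 (0.44, adjusted p = 0.043) and day 18 (0.45, adjusted p = 0.036) were each lost when any of 3 of the 4 libraries was left out. Both were also lost with all libraries kept in other edgeR settings. These were DESeq2 size factors (adjusted p = 0.057 and 0.060), at least 1 CPM in 4 libraries (0.079 and 0.057) and only the groups compared (0.081 and 0.078). On day 20 the difference was 0.39 (adjusted p = 0.086), and it was 0.70 (adjusted p = 0.010) without UT replicate 2.

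Per kilobase of exon, LTC4S made up 10.2% ± 0.490 of the sum of LTC4S and LTA4H in UT on day 10, 42.5% ± 7.13 on day 14 and 87.5% ± 2.11 on day 20 (SD, n = 2). In DOX its share was 8.35% ± 0.047 on day 12, 20.2% ± 0.580 on day 16 and 66.4% ± 1.77 on day 20. By this measure LTC4S became the larger of the pair between days 14 and 16 in UT, and between days 18 and 20 in DOX. The timing depends on the merged exon lengths used (1192 bases for LTC4S, 7350 for LTA4H). In CPM not divided by length, LTC4S was below LTA4H in UT on day 16 (17.9 ± 4.90 against 36.7 ± 2.13). On UT day 18 the CPM values were 39.7 ± 8.33 and 37.6 ± 0.471. In DOX on day 20 LTC4S was still the lower in CPM (13.6 ± 2.53 against 42.1 ± 4.52).

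The other lipoxygenases moved in opposite directions. ALOX12 (ENSG00000108839.12, chromosome 17, 6996065 to 7010736, plus strand) encodes the 12-lipoxygenase of platelets. In UT it stood at 31.8 and 32.8 CPM on day 10, 42 and 45.2 on day 12, 27.8 and 23.6 on day 14, 20.4 and 17.6 on day 16, 13.1 and 16.6 on day 18, and 4.75 and 7.10 on day 20. In DOX it stood at 58.8 and 62.0 CPM on day 12, 62.6 and 69.9 on day 14, 76.4 and 86.3 on day 16, 71.3 and 84.6 on day 18, and 42.2 and 45.2 on day 20. The highest UT library of any day, 45.2 CPM, was exceeded by 8 of the 10 DOX libraries. ALOX12 was 3.57-fold higher in DOX on average (log2 fold change 1.84, SE 0.07, adjusted p = 1.1e-12). The gap widened at each step: it was 0.47 at first (day 12, adjusted p = 0.10), then 1.36, 2.10 and 2.38, and reached 2.87 (SE 0.18, 7.32-fold) at day 20. All but the first were called. That of day 12 was called in other settings: limma-voom (adjusted p = 0.019), the DESeq2 test (adjusted p = 0.027) and only the groups compared (adjusted p = 0.0020).

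ALOX12 shares 491 exonic bases with the antisense gene ALOX12-AS1, and the strand setting of the counting was not given in the sources used here, so reads from the overlap cannot be assigned with certainty. ALOX12-AS1 was at 3.52 CPM ± 0.339 in UT on day 10 and 15 ± 1.32 on day 20, where it exceeded ALOX12 itself (5.92 ± 1.66), and at 2.89 ± 0.358 on day 12 and 9.49 ± 1.73 on day 20 in DOX (SD, n = 2). Over all libraries it had 4575 counts against 46229 for ALOX12, and it was lower in DOX than in UT on day 20, where ALOX12 was higher. The summed megakaryocyte and platelet markers of DOX against UT were 2503 against 850 CPM on day 16 and 685 against 261 CPM on day 20. On day 18 they were 1737 against 393 CPM. On days 12 and 14 their mean was lower in DOX (4262 against 6191 and 2970 against 3325 CPM, the libraries of day 14 overlapping). Both DOX libraries of ALOX12 were above both UT libraries on each of these days. The arms did not overlap for 61.7% (day 12) and 68.5% (day 14) of all genes, and the ALOX12 difference of day 12 was not called in the edgeR fit. The part of platelet cells in the ALOX12 values was not tested.

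ALOX15 (ENSG00000161905.13, chromosome 17, 4630902 to 4642294, minus strand) encodes 15-lipoxygenase, an enzyme abundant in human eosinophils. Its UT course had a trough, with 15.8 and 15.1 CPM on day 10, 13.1 and 12.9 on day 12, 6.03 and 5.71 on day 14, 11.9 and 9.50 on day 16, 26.0 and 17.9 on day 18, and 28.7 and 25.5 on day 20. The DOX course had a later trough, with 10.2 and 9.85 CPM on day 12, 3.40 and 4.2 on day 14, 2.52 and 2.29 on day 16, 5.27 and 3.97 on day 18, and 5.57 and 11 on day 20. DOX libraries were lower on all days, and the averaged difference was 2.68-fold (log2 fold change -1.42, SE 0.11, adjusted p = 7.2e-09). ALOX15 was called on day 16 (-2.15), day 18 (-2.25) and day 20 (-1.72), and missed the threshold on day 12 (-0.38, adjusted p = 0.55) and day 14 (-0.63, adjusted p = 0.069). The day 14 difference was called in 5 other settings, with adjusted p values from 0.031 (only the groups compared) to 0.0499 (library sizes alone), and that of day 12 with only the groups compared (adjusted p = 0.010).

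Per kilobase of exon, the make-up of the 3 lipoxygenases turned over in UT and turned later in DOX. ALOX12 made up 64.5% ± 3.29 of their sum in UT on day 10, and ALOX5 71.7% ± 5.30 on day 20 (SD, n = 2). On day 16 the ALOX12 share was 25% ± 0.954 in UT and 84.5% ± 3.75 in DOX. On day 20 it was 6.44% ± 2.95 in UT and 51.4% ± 2.81 in DOX, where ALOX5 had reached 41.2% ± 0.120. The share of ALOX15 was lowest on day 14 in UT (8.46% ± 2.13) and on day 16 in DOX (1.92% ± 0.215).

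**Figure D2:**
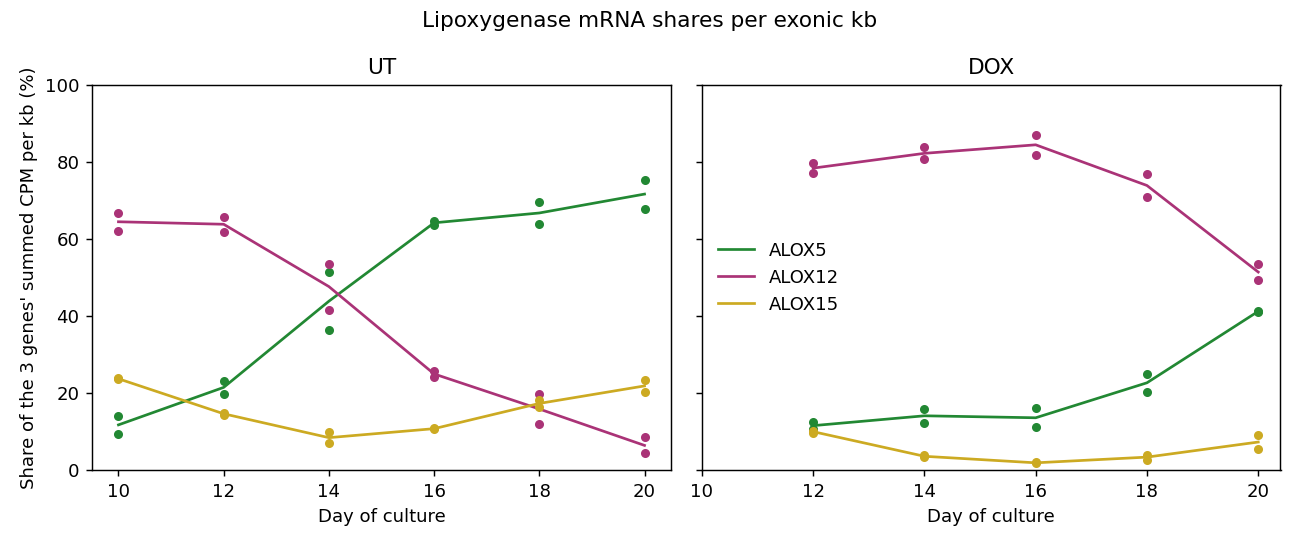
Share of ALOX5, ALOX12 and ALOX15 in the sum of their CPM per exonic kilobase (%), by day of culture, UT on the left and DOX on the right. Points are libraries and lines are means of 2 libraries. By this share ALOX5 overtakes ALOX12 by day 16 in UT and stays below it to day 20 in DOX. In CPM not divided by length, DOX day 20 held 50.1 ± 5.30 for ALOX5 and 43.7 ± 2.11 for ALOX12.

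PTGS1 (ENSG00000095303.17, chromosome 9, 122370530 to 122395703, plus strand) encodes cyclooxygenase-1, the constitutive enzyme that opens the prostanoid branch. It was the most abundant member per kilobase on day 10. UT libraries held 340 and 340 CPM on day 10, 461 and 461 on day 12, 188 and 190 on day 14, 113 and 98.5 on day 16, 81.1 and 78.8 on day 18, and 102 and 88.4 on day 20. DOX libraries held 385 and 416 CPM on day 12, 232 and 262 on day 14, 172 and 196 on day 16, 147 and 154 on day 18, and 91.3 and 100 on day 20. DOX libraries were below UT on day 12, above it from day 14 to day 18, and overlapped it on day 20. The day 12 difference (-0.20) was not called in this fit. It was called with only the groups compared (-0.24, adjusted p = 0.015). Over the 5 days the log2 fold change averaged 0.38 (SE 0.05, adjusted p = 5.8e-06), carried by day 16 (0.80) and day 18 (0.91), and over days 12 and 14 alone it was 0.09 (adjusted p = 0.47). The day 14 call (0.39, adjusted p = 0.018) was lost in 3 of the 4 fits without 1 library (adjusted p = 0.066 without UT replicate 1, 0.063 without UT replicate 2 and 0.19 without DOX replicate 2). On day 20 the difference was 0.01, with a 95% interval of -0.24 to 0.26.

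PTGS2 (ENSG00000073756.12, chromosome 1, 186671791 to 186680427, minus strand), the inducible cyclooxygenase-2, stayed low. Its levels lay between 0.684 and 2.07 CPM in the 12 UT libraries and between 0.525 and 2.26 CPM in the 10 DOX libraries. No comparison in this fit called it, and its log2 fold change averaged -0.10 (SE 0.23, adjusted p = 0.78), with a 95% interval of -0.59 to 0.39. PTGS2 was called in other settings: on day 12 with limma-voom (-1.23, adjusted p = 0.046) or with only the groups compared (-1.26, adjusted p = 0.0089), and with library sizes alone on day 18 (1.65, adjusted p = 0.017) and from UT day 10 to day 20 (-2.57, adjusted p = 0.00068). Its difference between UT days (adjusted p = 0.00011) and the variation of its arm difference with day (adjusted p = 0.0066) also passed with library sizes alone, and the latter without DOX day 20 replicate 2 (adjusted p = 0.048). PTGS1 made up at least 98.4% of the summed CPM per kilobase of both cyclooxygenases in every group mean.

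HPGDS (ENSG00000163106.11, chromosome 4, 94298535 to 94342876, minus strand) encodes haematopoietic prostaglandin D synthase, which turns the cyclooxygenase product into prostaglandin D2. UT libraries held 0.104 and 0.174 CPM on day 10 (7 and 9 counts), 1.62 and 1.21 on day 12, 18.4 and 16.5 on day 14, 26.6 and 20.5 on day 16, 23.3 and 17.4 on day 18, and 24.7 and 22.7 on day 20. DOX libraries held 0.389 and 0.450 CPM on day 12, 3.84 and 2.90 on day 14, 10.9 and 8.37 on day 16, 14.6 and 12.4 on day 18, and 24.1 and 20.3 on day 20. UT libraries stayed between 17.4 and 26.6 CPM from day 16 while DOX levels were still higher at each later day, so the arms lay apart early and overlapped on day 20. From day 12 to day 20 the log2 fold changes were, in order, -1.74, -2.37, -1.29, -0.59 and -0.09, the last with a 95% interval of -0.54 to 0.35. HPGDS was 2.32-fold lower in DOX on average (-1.22, SE 0.10, adjusted p = 1.3e-08). The day 12 call (adjusted p = 0.0018) was lost without UT replicate 1 (-1.51, adjusted p = 0.052), and the day 18 call (adjusted p = 0.037) was lost in 3 of the 4 fits without 1 library.

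PLA2G7 (ENSG00000146070.17, chromosome 6, 46704201 to 46735693, minus strand), which encodes the secreted PAF acetylhydrolase, was the member called lower on some days and higher on another. In UT it rose from 1.39 and 1.41 CPM on day 10 to 10.2 and 8.54 on day 12, 40.2 and 35.3 on day 14 and 44.4 and 49.5 on day 16, and then stood at 27.1 and 22.2 on day 18 and 22.6 and 21.4 on day 20. In DOX it stood at 3.64 and 3.16 CPM on day 12, 13.0 and 12.0 on day 14, 17.2 and 17.2 on day 16, 20.6 and 19.6 on day 18, and 50.7 and 38.9 on day 20. The UT maximum on day 16 (47.0 CPM ± 3.56) and the DOX level on day 20 (44.8 ± 8.39, SD, n = 2) differed by less than their spread. PLA2G7 was lower in DOX on day 12 (-1.46), day 14 (-1.59) and day 16 (-1.45), missed the threshold on day 18 (-0.29, adjusted p = 0.14) and was 2.04-fold higher on day 20 (1.03, SE 0.16, adjusted p = 9.9e-05). Its averaged difference of -0.75 (SE 0.07, adjusted p = 4.0e-08) therefore joins days of opposite sign.

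By day, 3 members were called on day 12, against 3.11% of all genes. The later counts were 8 (day 14, 27.0% of all genes), 9 (day 16, 39.9%), 8 (day 18, 35.8%) and 6 (day 20, 27.8%). On day 16, when the count was highest, 3 members were higher and 6 lower in DOX, against 21.2% and 18.7% of all genes. All 3 called on day 12, ALOX5AP, HPGDS and PLA2G7, were lower in DOX, and that count was 1 without UT replicate 1. On day 14 the count was 5 without UT replicate 1 or without DOX replicate 2, and on day 16 it was 9 with and without the library that held fibroblast markers. The libraries of the arms did not overlap for 10, 10, 9, 10 and 7 members from the first to the last shared day, and for 61.7%, 68.5%, 71.0%, 62.5% and 51.4% of all genes. The size of the difference between arms varied with day for 7 members, against 31.4% of all genes, and the smallest adjusted p values of that F test were those of PLA2G7 (4.3e-07) and ALOX12 (4.5e-06). ALOX5, LTA4H and PTGS2 missed the threshold there (adjusted p = 0.15, 0.088 and 0.16), and each passed it in some other settings.

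**Figure D3:**
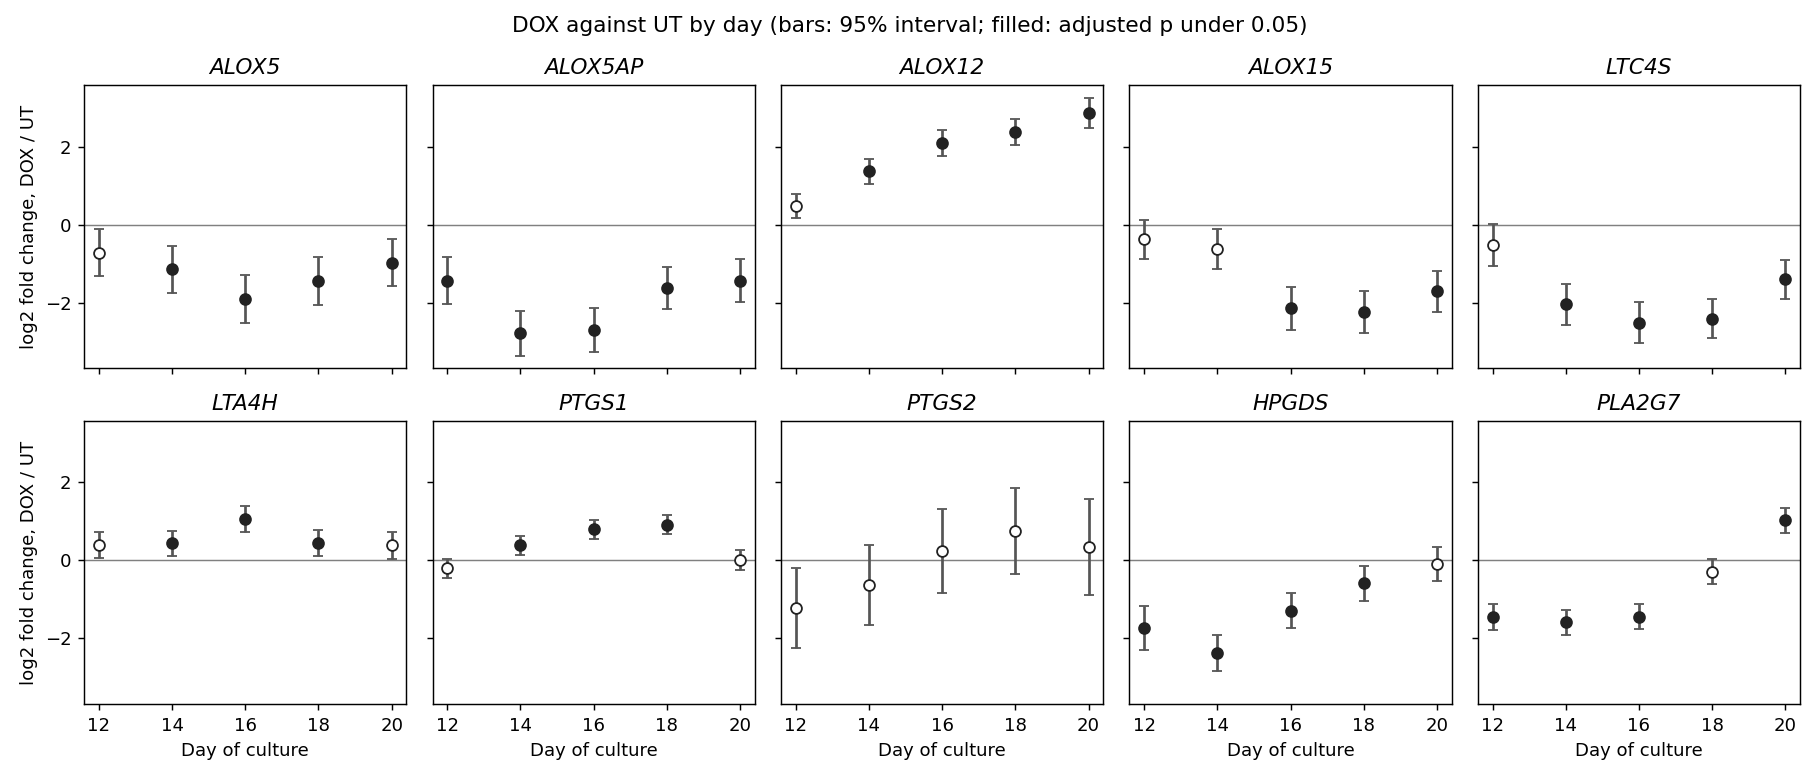
log2 fold change of DOX against UT on days 12 to 20 for each gene, with 95% intervals from the edgeR fit; filled points have an adjusted p under 0.05. ALOX12 moves up from 0.47 to 2.87, PLA2G7 crosses from -1.46 to 1.03, and HPGDS closes to -0.09.

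Over the UT course itself, from day 10 to day 20, 9 of the 10 genes were called, against 62.3% of all genes. HPGDS rose 172-fold (log2 fold change 7.42), ALOX5AP 165-fold (7.37), LTC4S 24.7-fold (4.63), PLA2G7 15.7-fold (3.97) and ALOX5 11.7-fold (3.54), with adjusted p values of 1.6e-08 or less. The HPGDS fold rests on 16 counts on day 10. ALOX12 fell 5.41-fold, PTGS1 3.57-fold and LTA4H 2.45-fold. ALOX15 rose 1.75-fold (0.81, adjusted p = 0.0077), a call that was lost without UT day 10 replicate 2 (adjusted p = 0.058) or UT day 20 replicate 1 (adjusted p = 0.057). With library sizes alone as the scaling, which moved the median of all genes from -0.24 to -2.41, ALOX15 fell instead (-1.37, adjusted p = 2.5e-05). Any difference between days was called for 9 members within UT, against 72.8% of all genes, and for 9 within DOX, against 59.8%, with PTGS2 the exception in both (adjusted p = 0.25 and 0.29).

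Per kilobase of exon, the order of the genes turned over between the ends of the UT course. The ranks below depend on the merged exon lengths used. On day 10 PTGS1 led with 58.7 CPM per kilobase, followed by ALOX12 (12.3), LTA4H (10.7), ALOX15 (4.54), ALOX5 (2.26), LTC4S (1.22), ALOX5AP (1.05), PLA2G7 (0.690), PTGS2 (0.233) and HPGDS (0.0659), and each step was wider than the summed SDs of its neighbours. By UT day 20 ALOX5AP led with 174 CPM per kilobase, LTC4S (30.2) and ALOX5 (26.5) did not differ beyond their spread, PTGS1 followed with 16.4, and HPGDS (11.2) and PLA2G7 (10.8) again did not differ. ALOX15 (7.96), LTA4H (4.36), ALOX12 (2.26) and PTGS2 (0.178) came last. In DOX on day 20 ALOX5AP also led (64.3), PLA2G7 was next (22.1), and ALOX12 (16.7) stood level with PTGS1 (16.6). ALOX5 (13.4) lay below PTGS1 beyond the spread, the steps from ALOX5 to LTC4S (11.4) and from LTC4S to HPGDS (10.5) were within it, and LTA4H (5.72), ALOX15 (2.43) and PTGS2 (0.222) closed the order. In CPM not divided by length some ranks were otherwise. LTA4H (78.8 ± 0.304) was above ALOX12 (32.3 ± 0.681) in UT on day 10. PTGS1 (95.9 ± 6.46) was above ALOX12 (43.7 ± 2.11) in DOX on day 20.

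Several DOX levels on day 20 were seen to lie near UT levels of day 16, and those groups were then compared directly. A choice made from these same values favours a low count of calls, so the count is a description. Of the 10 members 1 was called, against 7.02% of all genes. That member was ALOX12, 2.31-fold higher in DOX day 20 (log2 fold change 1.21, SE 0.16, adjusted p = 0.00017), and the count was also 1 without UT day 16 replicate 2. The intervals of the other differences were -0.38 to 0.25 for PLA2G7, -0.52 to 0.36 for HPGDS, -0.39 to 0.10 for PTGS1, -0.14 to 0.53 for LTA4H, -0.89 to 0.10 for LTC4S, -1.07 to 0.12 for ALOX5 and -0.91 to 0.16 for ALOX15. ALOX5AP was at -0.69 (95% interval -1.22 to -0.16, adjusted p = 0.11), and PTGS2 was too low for a narrow interval (-1.03 to 1.22). With replicate number as a block in the edgeR fit, ALOX5AP was called (-0.68, adjusted p = 0.0049). ALOX15 was called without DOX day 20 replicate 2 (-0.94, adjusted p = 0.043), and ALOX5AP in a fit with no filter on low counts (-0.70, adjusted p = 0.00045). The mitochondrial shares of the groups were 57.0% and 54.7%.

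**Figure D4:**
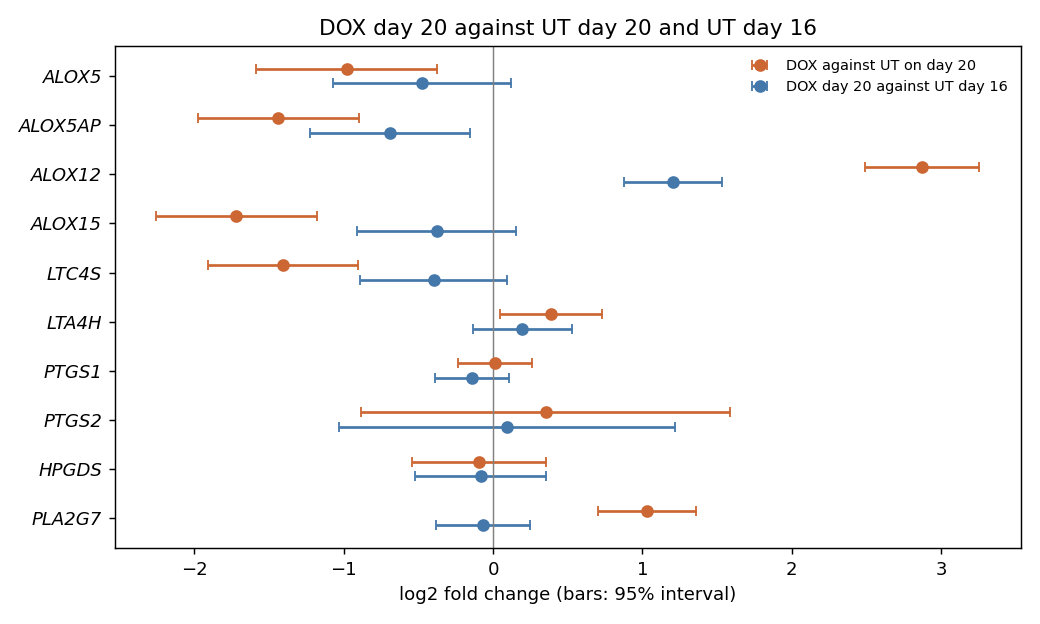
log2 fold change of DOX day 20 against UT day 20 (orange) and against UT day 16 (blue) for the 10 genes, with 95% intervals from the edgeR fit. Against UT day 16 the interval of ALOX12 (0.88 to 1.53) lies above 0, that of ALOX5AP below 0, and the other 8 include 0.

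The rest of the pathway was read from 6 lists with 72 genes in all, described by counts in the averaged comparison. Of 12 tested genes for fatty acid release, 3 were higher and 5 lower in DOX. Among all genes 29.8% were higher and 23.0% lower, and the counts of this list and those below are descriptions to be read against these shares. PLA2G4A, the cytosolic phospholipase A2 that releases arachidonic acid, was higher (0.85, SE 0.12, adjusted p = 1.2e-05) and stood at 6.65 CPM ± 0.0154 in DOX against 2.75 ± 0.00242 in UT on day 16. FAAH and MGLL, which hydrolyse endocannabinoids, were lower (-1.31 and -0.90), as was DAGLB, the most abundant (-0.40). PLAAT3 (-1.26, adjusted p = 0.045) rests on 109 counts in UT and 79 in DOX over the days compared. The other genes called in this list, named after their values were seen, were the phospholipases PLA2G6 (0.35), PLA2G15 (0.33) and PLA2G4C (-0.79).

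The receptor list had the most tested genes and also the largest count of genes called lower among the lists. In the smaller PAF list 3 of 6 were lower. Of 15 tested receptors for prostanoids, leukotrienes, lipoxins and PAF, 2 were higher and 8 lower in DOX, against 29.8% and 23.0% of all genes. Their median log2 fold change was -0.51. PTAFR, the PAF receptor and the most abundant of the list per kilobase, was at 309 CPM ± 18.9 in UT and 60.1 ± 6.33 in DOX on day 16, and at 671 ± 4.88 and 177 ± 19.6 on day 20 (SD, n = 2). Averaged over the shared days it was lower by a log2 value of -1.72 (SE 0.06, adjusted p = 4.2e-13). PTGDR2, the prostaglandin D2 receptor of eosinophils and basophils, was at 106 CPM ± 8.87 in UT and 19.8 ± 1.93 in DOX on day 20 (averaged -1.71, adjusted p = 1.3e-11). OXER1, a receptor for an oxidised product of 5-lipoxygenase, was lower as well (-2.03, adjusted p = 4.8e-10). PTGDR, the other prostaglandin D2 receptor, was called higher (adjusted p = 0.0027) on 157 counts in the 10 DOX libraries and 34 in the 10 UT libraries of the same days, 5 of which had 0. In the comparison of DOX day 20 with UT day 16, 4 receptors were called, all lower in DOX, against 4.13% of all genes called lower. They were OXER1 (-1.29), PTGDR2 (-1.15), PTAFR (-0.80) and the thromboxane receptor TBXA2R (-0.92, adjusted p = 0.026), the last named after its values were seen. TBXA2R was also the other receptor called higher in the averaged comparison (0.29, adjusted p = 0.028). The other pathway lists had 1 gene called for DOX day 20 against UT day 16. It was EPHX1, of the epoxide hydrolases, lower in DOX (-1.74, adjusted p = 0.042) and named after its values were seen.

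Of 11 tested prostanoid synthases, transporters and breakdown enzymes, 7 were higher and 3 lower in DOX. ABCC4, a transporter that exports prostaglandins, fell in UT from 712 CPM ± 23.9 on day 10 to 35.0 ± 4.77 on day 20 and was higher in DOX on average (0.94, adjusted p = 1.7e-08). PTGES3, the most abundant, and PTGR2, which reduces a prostaglandin breakdown product, were also higher (0.54 and 1.11). HPGD, which inactivates prostaglandins, was lower on average (-1.07, adjusted p = 1.5e-06), but its libraries met on day 20 at 22.2 CPM ± 3.82 in UT and 21.8 ± 6.89 in DOX. PTGES (-1.47, adjusted p = 0.046) rests on 122 counts in UT and 69 in DOX over the days compared.

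The other 3 lists held fewer tested genes. Of 10 tested genes for other lipoxygenases and leukotriene metabolism, 3 were higher and 3 lower. DPEP2, GGT5 and GGT1, which trim cysteinyl leukotrienes, were lower (-0.95, -0.79 and -0.65), PTGR1, which inactivates leukotriene B4, was higher (0.62), and ABCC1, the exporter of leukotriene C4 and most abundant of the list, was at 0.05 (adjusted p = 0.54). GGT1 has near-identical copies among which reads can be split, so its value is uncertain. Of 6 genes for PAF synthesis and breakdown, 3 were lower and none higher: PAFAH2, an intracellular PAF acetylhydrolase (-1.14, adjusted p = 9.1e-11), LPCAT2, which makes PAF (-0.58), and LPCAT1 (-0.16, adjusted p = 0.048). PAFAH1B1, the most abundant of that list, was at 0.05 (adjusted p = 0.43). Of 5 tested epoxygenases and epoxide hydrolases, EPHX2, which hydrolyses epoxides of arachidonic acid (1.20, adjusted p = 7.3e-10), and CYP2U1 (1.12, adjusted p = 0.024) were higher, and CYP1B1, the most abundant, was at -0.14 (adjusted p = 0.27). CYP2U1 rests on 207 counts in the 10 UT libraries of the days compared, 2 of which had 0, and on 492 in the 10 DOX libraries.

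Over the UT course from day 10 to day 20, 7 of the 15 receptors rose and 3 fell, against 28.1% of all genes called higher and 34.2% called lower, with a median log2 fold change of 2.40 against -0.24 over all genes. PTAFR rose by 3.80, OXER1 by 3.35 and PTGDR2 by 3.15 on the log2 scale. Of the 11 prostanoid synthases, transporters and breakdown enzymes 2 rose and 6 fell, among them ABCC4 (-4.34) and PTGES3 (-1.96), while HPGD rose by 6.76 from 24 counts on day 10. Of the 12 genes for fatty acid release 6 rose and 2 fell, with MGLL (5.45) and FAAH (4.50) higher and PLA2G4A (-3.09) lower. The list of other lipoxygenases and leukotriene metabolism split evenly, 4 up and 4 down of 10. Of the 6 PAF genes PAFAH2 (2.94) and LPCAT2 (1.51) rose and PAFAH1B1 fell (adjusted p = 1.2e-06), and of the 5 epoxygenases and epoxide hydrolases 1 rose and 3 fell, EPHX2 among the latter (-2.88).

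**Figure D5:**
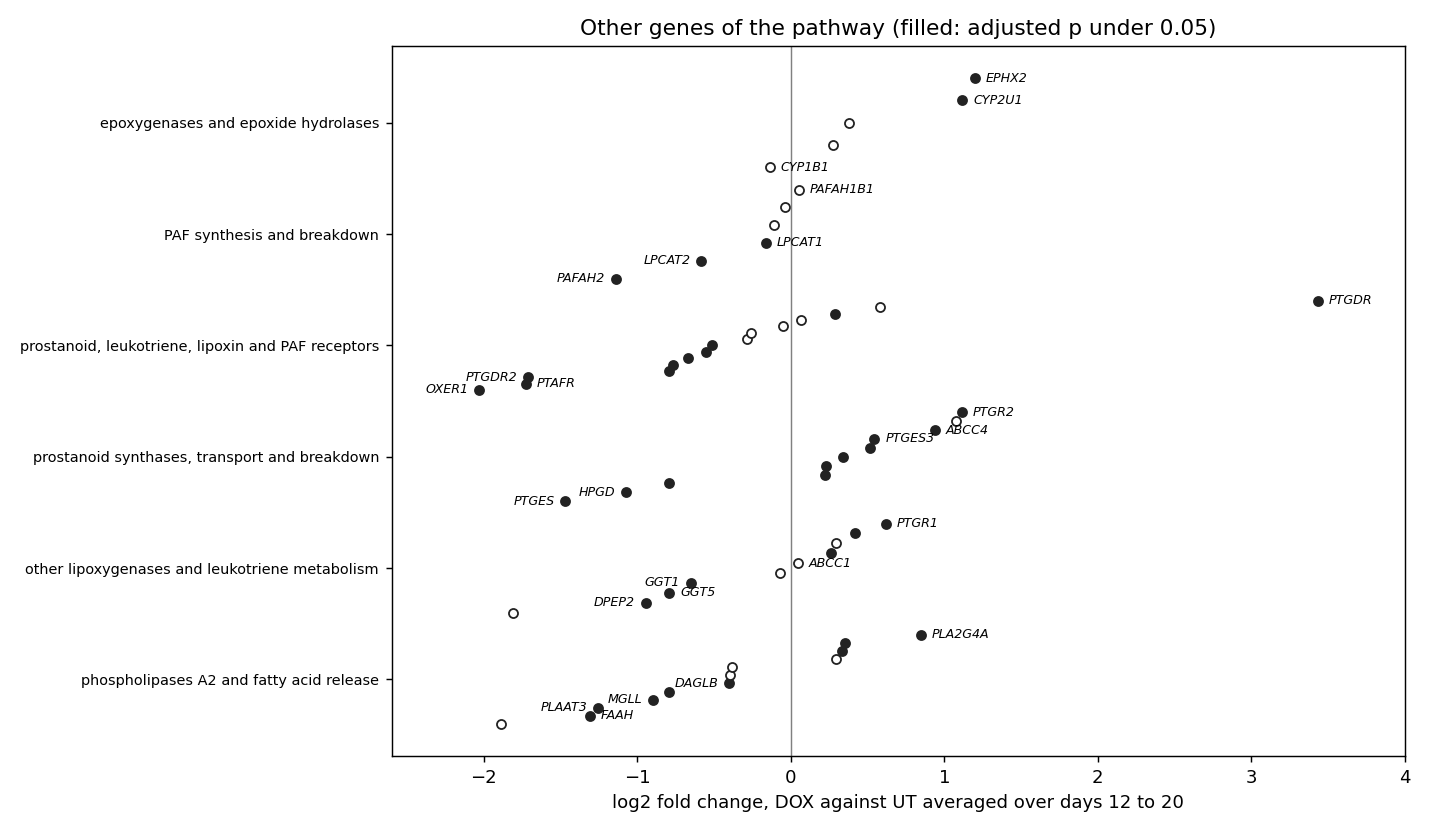
Averaged log2 fold change of DOX against UT over days 12 to 20 for the tested genes of the 6 other pathway lists. Each point is a gene, filled where the adjusted p is under 0.05, and labels mark the genes named by rule; receptors have 8 called genes below 0, among them OXER1, PTAFR and PTGDR2.

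Genes with the most similar course were found by Pearson correlation of mean log2 CPM over the 11 groups, among 11136 genes. These correlations share libraries and are descriptions. They were highest for ALOX5AP with IFI30 (0.998) and BCL2A1 (0.995), for ALOX5 with CD300LF (0.997) and RIPK3 (0.992), and for LTC4S with RAB27A (0.995) and RHBDD2 (0.993). PTGS1 was nearest to PBX2 and TLN1 (both 0.994), LTA4H to SAFB (0.992) and UTP18 (0.990), and HPGDS to ARHGAP15 (0.991) and IL2RG (0.990). PLA2G7 was nearest to HPGD (0.979), the prostaglandin-inactivating enzyme described above, and MMP19 (0.976). ALOX12 was nearest to KRIT1 (0.972) and PROSER2 (0.971), and ALOX15 to HIP1 (0.970) and MBOAT7 (0.969). For PTGS2 the nearest genes, BTBD19 (0.840) and SIAH1 (0.835), were less close.

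How the arms compare on single late days depended on the scaling. With library sizes alone, the median of all genes moved to 0.93 on day 16, 0.98 on day 18 and 0.95 on day 20, and on day 20 the values of ALOX5 (-0.09), ALOX5AP (-0.51) and LTC4S (-0.50) were no longer called, although each stayed below that median. HPGDS lost its call on day 16 (-0.35, adjusted p = 0.23) and ALOX5 on day 18 (-0.52, adjusted p = 0.14), LTA4H and PTGS1 lost theirs on day 14 (adjusted p = 0.066 and 0.054), and ALOX5 missed the threshold for a difference between DOX days (adjusted p = 0.076). HPGDS was then higher in DOX on day 20 (0.83, adjusted p = 0.0074), PLA2G7 on day 18 (0.63, adjusted p = 0.0088) and PTGS1 on day 20 (0.91, adjusted p = 1.3e-05). In the averaged comparison the 9 called genes kept their signs under that scaling, from -1.46 for ALOX5AP to 2.37 for ALOX12, with PLA2G7 the smallest at -0.21 (adjusted p = 0.032).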

How the data were processed

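The authors deposited expected counts per gene (estimated reads, not normalised) for 22 libraries, made with Trim Galore 0.6.5, STAR and Salmon on hg38, per the submitters' processing notes. No annotation release or strand setting is stated in the sources used here. Of the values, 88.3% were whole numbers, and all were rounded. Each pair of arm and day in the labels was a group, 11 in all. edgeR 4.0.16 kept 20115 of 60240 genes (filterByExpr, minimum count 10) and scaled libraries by TMM. All comparisons are contrasts of 1 quasi-likelihood model with a term for each group, 11 residual degrees of freedom and a common coefficient of biological variation of 0.184. p-values were adjusted over all genes tested. Depth was 24730502 to 53508548 counts per library, and the number of libraries per group limits precision. Exon lengths and positions came from GENCODE 29, in which 58020 of the identifiers were found; it is not known to be the release used for counting. Promoter windows came from RefSeq, and motifs were searched on both strands.

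The members and the gene lists were chosen with earlier results of these data known. The text names all members, and from each other list up to 4 called genes with the largest averaged change and the most abundant gene, and for each member the 2 genes of nearest course. Alternative settings were scaling by library sizes alone or by DESeq2 size factors, no filter, at least 1 CPM in 4 libraries, limma-voom (limma 3.58.1), the DESeq2 1.42.0 test, replicate number as a block, mitochondrially encoded genes removed, only the groups compared, and leaving out each library or day. Removing mitochondrially encoded genes together with library sizes alone was chosen after seeing the data. Where 1 library was left in a group, its spread was taken from the other groups. The fits were tested on simulated data. Scripts ran in R 4.3.3 and in Python 3.11.15 with pandas 2.3.3, numpy 2.4.6 and, for figures, matplotlib 3.10.9.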

Additional observations from a re-analysis of the deposited data

Results flagged for a closer look

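For 7 genes the difference between DOX and UT was not the same on all 5 shared days, by an F test of the interaction of arm and day in the edgeR fit. Adjusted p values were 4.3e-07 for PLA2G7, 4.5e-06 for ALOX12, 0.00019 for PTGS1, 0.0002 for HPGDS, 0.00091 for ALOX15, 0.0015 for LTC4S and 0.0089 for ALOX5AP. The test covers all days jointly and does not say which days differ from each other. With library sizes alone the value of ALOX15 was 0.11, and with limma-voom that of ALOX5AP was 0.056. LTA4H, not among the 7, passed with limma-voom (0.037), the DESeq2 test (0.021), no filter (0.047) and library sizes alone (1.7e-05). ALOX5, also not among them, passed with no filter (0.00013).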

How the results depend on the processing

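Of 2060 alternative values for single genes, 1947 kept their call and, where signed, their direction, 46 lost the call, 39 gained one and 28 changed sign. With library sizes alone and no genes removed, 88 of 110 were kept, while 9 lost the call, 8 gained one and 5 changed sign. Removing mitochondrially encoded genes with TMM scaling changed none of 110. TMM trims genes of extreme ratio before it scales, so that result says little about the mitochondrial shares. With library sizes alone as the scaling, the same removal kept 101 of 110, while 5 lost the call, 2 gained one and 2 changed sign.

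Replicate numbers were not taken to pair the libraries: over 55 pairs of groups the correlation of replicate differences had a median of 0.038 and exceeded 0.1 in 5. Replicate 1 was nonetheless the higher of the 2 in all 11 groups for ALOX5AP and in 10 for ALOX5. It was the higher in 9 for ALOX15 and HPGDS, 8 for LTC4S and PLA2G7, and 7 for PTGS2. For LTA4H and PTGS1 the number was 4, and for ALOX12 it was 2. With the replicate block, 107 of 110 values were unchanged in call, ALOX5 was also called on day 12 (adjusted p = 0.043) and in the interaction (0.017), and 2 members were called for DOX day 20 against UT day 16, ALOX12 and ALOX5AP (-0.68, adjusted p = 0.0049).

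On day 12, 5 members were called with limma-voom and 9 with only the groups compared, and for DOX day 20 against UT day 16 there were 2 with no filter. Leaving out 1 library gave 1 to 3 called members on day 12, 5 to 7 on day 14 and 1 to 2 for DOX day 20 against UT day 16.

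Of the sign changes, 11 were in PTGS2, whose averaged value was 0.44 with library sizes alone, 0.18 without day 12, 0.032 without day 14 and 0.011 with mitochondrially encoded genes removed and library sizes alone, and -0.12 for DOX day 20 against UT day 16 with limma-voom. With library sizes alone HPGDS was 0.33 on day 18 and 0.83 on day 20, PLA2G7 0.63 on day 18 and ALOX15 -1.37 from UT day 10 to day 20, and with mitochondrially encoded genes also removed HPGDS was 0.17 on day 20. PTGS1 on day 20 was -0.073 with DESeq2 size factors and with the DESeq2 test, -0.049 with at least 1 CPM in 4 libraries and -0.019 with only the groups compared. Causes were not tested.

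Ranges over left-out libraries that crossed 0 were, for PTGS2, -0.33 to 0.065 averaged, -0.13 to 0.58 on day 16, -0.81 to 0.98 on day 20, -0.88 to 0.032 from UT day 10 to day 20 and -1.08 to 0.71 for DOX day 20 against UT day 16. They were -0.081 to 0.13 for PTGS1 and -0.22 to 0.035 for HPGDS on day 20. For DOX day 20 against UT day 16 they were -0.94 to 0.037 for ALOX15, -0.26 to 0.11 for HPGDS and -0.28 to 0.11 for PLA2G7. PTGS2 had 579 counts in the 10 UT libraries of days 12 to 20 and 609 in DOX, which limits what could be seen of it.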
